A study of Mus musculus with 10 samples.

Results

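The gut hormones of enteroendocrine cells were followed in RNA-seq libraries of mouse proximal intestine, as the 9 peptide hormone genes *Cck*, *Gip*, *Sct*, *Sst*, *Ghrl*, *Gcg*, *Pyy*, *Nts* and *Insl5* and the serotonin synthesis gene *Tph1*. These 10 genes were taken by symbol, and not by their level, from the 35275 Ensembl gene IDs that each library lists. The series compared 5 wild-type mice (WT) with 5 knockout mice (KO) of *Slc39a14*, which encodes the zinc importer Zip14, at an age of 8 to 10 weeks per the labels, with 1 library per mouse. The series title names a deletion restricted to enterocytes, whereas the methods of the study describe this knockout as lacking the gene in the whole body (WB-KO), with WT mice of the same strain bred from heterozygous parents as controls. The labels say only KO. The enterocyte line of the study was made with Villin-Cre mice on C57BL/6, no strain is named there for the WB-KO line, and the sex of single mice was not given in the sources used here.

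Enteroendocrine cells are scattered single cells of the gut epithelium that sense the contents of the lumen and release peptides or serotonin into blood and onto nerves. Which hormones they make depends on where along the gut they sit. Cholecystokinin (*Cck*), glucose-dependent insulinotropic peptide (*Gip*), secretin (*Sct*) and ghrelin (*Ghrl*) are made mainly in stomach, duodenum and jejunum, while proglucagon (*Gcg*), peptide YY (*Pyy*), neurotensin (*Nts*) and insulin-like peptide 5 (*Insl5*) are made mainly in ileum and colon, and somatostatin (*Sst*) and serotonin are made throughout.

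The libraries held between 16729787 and 20819678 counts in WT mice and between 17118742 and 19414828 in KO mice. Values are CPM, counts scaled to a common library total, after scaling by edgeR's TMM method, and KO was set against WT by edgeR's quasi-likelihood test over the 15610 genes that passed a filter on low counts, with an adjusted p under 0.05 as a call. *Slc39a14* itself had between 190.6 and 356.4 CPM in WT libraries and between 78.3 and 160.0 CPM in KO libraries, without overlap (log2 fold change -1.35, standard error 0.22, adjusted p = 0.00184 from edgeR), and KO replicate 1 was the highest of the KO libraries. Counts over the whole gene include any exons that a deletion leaves in place. The study also describes *Zip14* as highest in the proximal intestine and falling further along the gut. The label "proximal" was checked against genes that mark a position along the gut. Of the 8 tested genes of the duodenum and jejunum list, 5 were lower and 0 higher in KO mice, and their list summed to between 5549.0 and 7523.3 CPM in WT libraries and between 115.9 and 965.5 CPM in KO libraries. Of the 8 genes of the ileum list, 7 were higher, with *Fabp6*, the ileal bile acid binding protein, between 0.0637 and 1.74 CPM in WT libraries and between 2298.6 and 9038.2 CPM in KO libraries. Among all genes tested, 13.9% were lower and 16.0% higher. *Hoxb9*, a gene of posterior identity, was at 0.224 CPM or less in WT libraries, at 0.281 CPM in KO replicate 1 and between 42.8 and 62.2 CPM in the other KO libraries. *Car1*, a colon gene, had 1167.4 CPM in KO replicate 2 and at most 11.3 CPM elsewhere, and the colon list summed to between 22.8 and 60.7 CPM in WT libraries and between 37.0 and 1304.5 CPM in KO libraries. The place from which a piece of gut was taken and the genotype cannot be told apart here, and this bears on *Slc39a14* and on every hormone below.

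Among the 9 hormone genes that passed the filter, 3 were higher in KO mice (*Sct*, *Gcg* and *Pyy*), 4 were lower (*Cck*, *Gip*, *Ghrl* and *Tph1*), and *Nts* and *Sst* did not pass the threshold. Over all genes tested, 29.9% were called, 16.0% higher and 13.9% lower. *Insl5* was below the filter and was tested on its own. The groups did not overlap in 6 of the 10 genes, *Cck*, *Gip*, *Ghrl* and *Tph1* below and *Gcg* and *Pyy* above the WT libraries, where 21.1% of all genes tested did not overlap, 10.9% with the KO libraries below and 10.2% with them above. A log2 fold change of -2 or below with a call was found for *Cck*, *Gip*, *Ghrl* and *Tph1*, as for 1.53% of all genes tested, and of 3 or above for *Pyy*, as for 0.474%. Bulk tissue cannot tell fewer cells of a type from less RNA per cell. Each library came from a different mouse, so that the spread holds that between animals together with any difference in where the piece was taken.

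**Figure D1:**
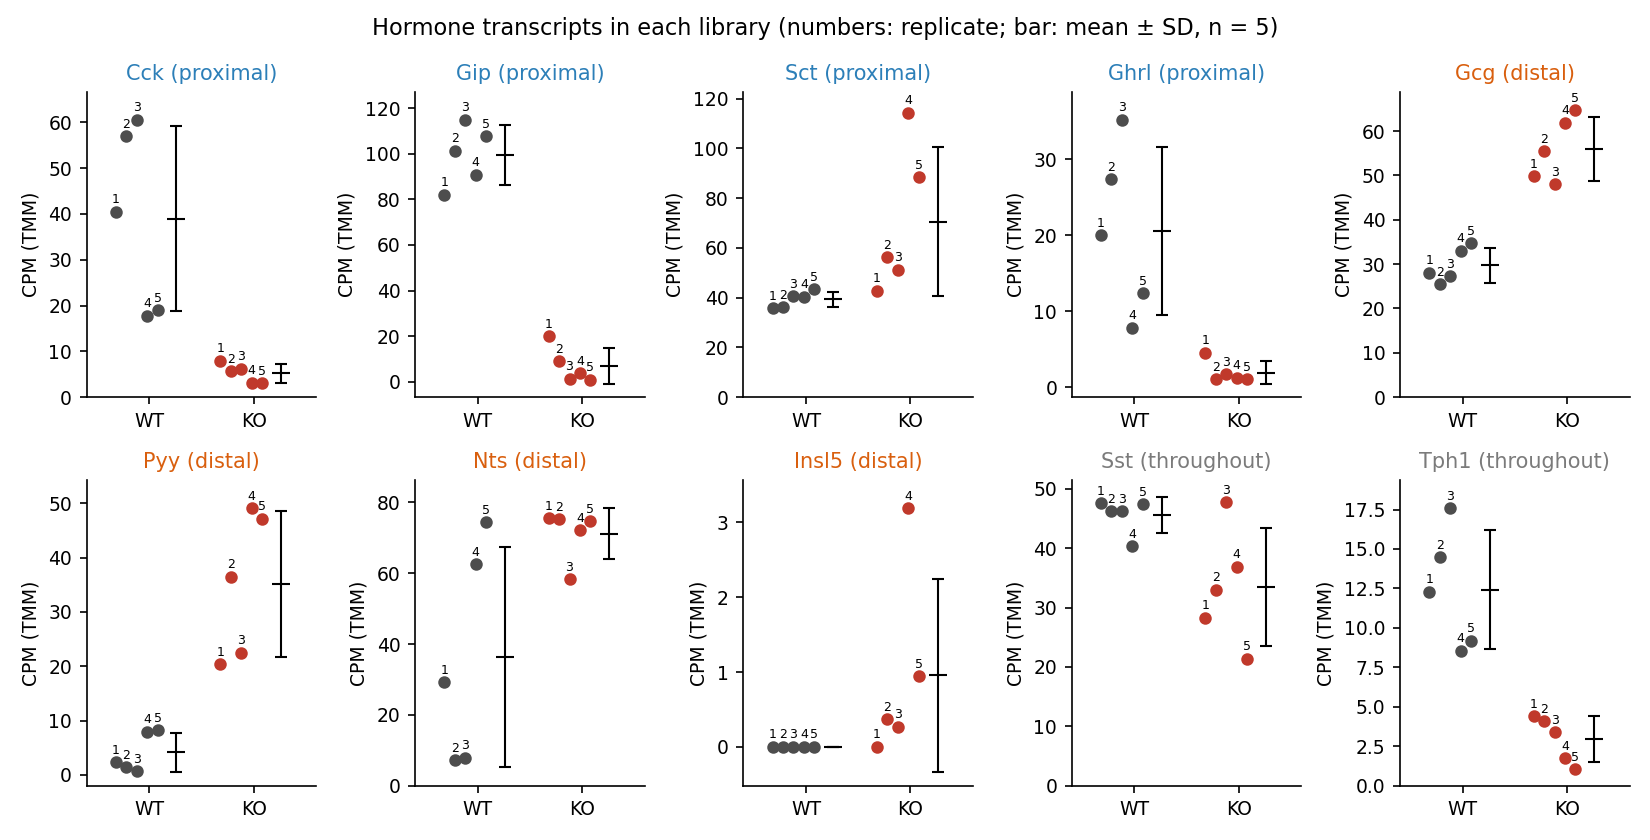
Transcript level of each of the 10 genes in CPM (vertical axis, linear) in the 5 WT libraries (grey) and the 5 KO libraries (red), numbered by replicate, with the mean and SD of each group as a black bar beside the points. *Gip* lay between 82.0 and 114.9 CPM in WT libraries and between 0.838 and 20.0 CPM in KO libraries, while *Pyy* lay between 0.641 and 8.23 CPM and between 20.4 and 49.1 CPM.

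Of the 4 proximal hormones, *Gip* differed the most. *Gip* is the incretin of K cells, which strengthens insulin release after a meal. The gene (ENSMUSG00000014351) spans 96024545 to 96030831 of chromosome 11, plus strand, in GRCm38. In WT replicates 1 to 5 it had 82.0, 101.4, 114.9, 90.8 and 107.6 CPM, and in KO replicates 1 to 5 it had 20.0, 9.15, 1.35, 3.66 and 0.838 CPM. Every KO library was below every WT library, and the KO libraries themselves ranged widely, with replicates 3 and 5 near the bottom of the counts and replicate 1 at the top. The mean was 99.4 ± 13.1 CPM in WT and 6.99 ± 7.97 CPM in KO mice (SD, n = 5 each), 14.2-fold lower on the fitted scale (log2 fold change -3.83, standard error 0.70, edgeR adjusted p = 0.00313). Only 0.263% of the genes tested had a lower log2 fold change.

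*Cck*, the hormone of I cells that empties the gallbladder and drives pancreatic enzyme release, had 40.5, 57.0, 60.6, 17.8 and 19.0 CPM in WT replicates 1 to 5 and 7.94, 5.75, 6.25, 3.19 and 3.09 CPM in KO replicates 1 to 5. WT mice were spread widely among themselves, and even the lowest of them stood above every KO library. *Cck* (ENSMUSG00000032532, chromosome 9 from 121489824 to 121495694, minus strand) was 7.44-fold lower in KO mice (log2 fold change -2.90, standard error 0.42, edgeR adjusted p = 9.89e-04). *Ghrl*, the appetite-stimulating hormone made mostly in the stomach and in smaller amounts in the duodenum, had 20.0, 27.4, 35.2, 7.85 and 12.4 CPM in WT replicates 1 to 5 and 4.56, 1.05, 1.72, 1.28 and 1.10 CPM in KO replicates 1 to 5. The order of the WT libraries was like that of *Cck*, with replicate 3 highest and replicates 4 and 5 lowest, and no KO library reached the lowest WT library. *Ghrl* (ENSMUSG00000064177, chromosome 6 from 113716119 to 113719880, minus strand) was 10.6-fold lower in KO mice (log2 fold change -3.41, standard error 0.52, edgeR adjusted p = 0.00134). Its exons overlap those of *Gm26982* and *Gm44033* on the other strand, and since the handling of strand by the read counter is not given, reads of these genes cannot be told apart. The stomach list, which marks the organ with the most ghrelin, summed to between 4.17 and 6.88 CPM in WT libraries and between 0.314 and 1.35 CPM in KO libraries. Of its 10 genes only *Gkn3* passed the filter and it was lower, with 2.90, 3.44, 4.08, 2.80 and 2.63 CPM in WT replicates 1 to 5, where replicate 3 was highest as for *Ghrl*, and at most 0.646 CPM in KO libraries. *Pgc*, a stomach protease precursor, was at 0.881, 2.04, 0.990, 0.220 and 0 CPM in WT replicates 1 to 5 and at 0.162 CPM or less in KO libraries, while *Gkn1* and *Gkn2* had counts in WT replicate 5 alone. *Gif* had 44 counts in the WT group and 13 in the KO group, and *Muc5ac* had 12 and 1. The rest of the list went the other way at few counts, *Atp4a* with 15 and 23, *Tff2* with 4 and 11, *Atp4b* with 1 and 2, and *Tff1* with 0 and 1. The part of stomach tissue in the *Ghrl* difference was not tested.

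*Sct* went the other way from the rest of the proximal set. Secretin, the hormone of S cells that releases bicarbonate from the pancreas, had 35.8, 36.2, 40.6, 40.4 and 43.3 CPM in WT replicates 1 to 5 and 42.8, 56.3, 51.2, 114.4 and 88.3 CPM in KO replicates 1 to 5. KO replicate 1 lay within the narrow WT range and the other 4 KO libraries lay above it, with replicates 4 and 5 well apart from the rest. *Sct* (ENSMUSG00000038580, chromosome 7 from 141278330 to 141279133, minus strand) was 1.80-fold higher in KO mice (log2 fold change 0.85, standard error 0.24, edgeR adjusted p = 0.0225). Its call was lost without WT replicate 1 (adjusted p = 0.0553) or without WT replicate 2 (adjusted p = 0.0559), at nearly the same size of change.

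*Pyy* showed the largest rise of the tested hormones. Peptide YY is the L cell hormone that slows gut transit and curbs appetite. The gene (ENSMUSG00000017311) spans 102106676 to 102107832 of chromosome 11, minus strand. It had 2.28, 1.47, 0.641, 7.96 and 8.23 CPM in WT replicates 1 to 5 and 20.4, 36.5, 22.5, 49.1 and 47.2 CPM in KO replicates 1 to 5. All KO libraries were above all WT libraries, and WT replicates 4 and 5 stood above the other WT libraries. The means of 4.12 ± 3.68 and 35.1 ± 13.4 CPM (SD, n = 5 each) gave an 8.51-fold rise on the fitted scale (log2 fold change 3.09, standard error 0.60, edgeR adjusted p = 0.00431), and 99.5% of the genes tested had a lower log2 fold change.

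*Gcg*, from which L cells cut glucagon-like peptides 1 and 2, rose less and more evenly. It had 28.1, 25.5, 27.3, 33.0 and 34.8 CPM in WT replicates 1 to 5 and 49.9, 55.5, 48.1, 61.9 and 64.7 CPM in KO replicates 1 to 5. The spread within each group was small beside the gap between them. *Gcg* (ENSMUSG00000000394, chromosome 2 from 62474530 to 62483650, minus strand) was 1.88-fold higher in KO mice (log2 fold change 0.91, standard error 0.12, edgeR adjusted p = 6.25e-04), with the smallest standard error of the 9 tested hormones. *Gcg* was already well above *Pyy* per length of transcript in WT mice, at 19.9 ± 2.65 against 6.52 ± 5.83 CPM per kilobase of exon (SD, n = 5).

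*Nts*, the peptide of N cells, which acts on motility and fat absorption, had 29.3, 7.20, 7.92, 62.6 and 74.4 CPM in WT replicates 1 to 5 and 75.5, 75.3, 58.4, 72.2 and 74.7 CPM in KO replicates 1 to 5. WT replicates 4 and 5 lay within the KO range, WT replicates 2 and 3 lay far below it, and the KO libraries were close together. The difference (log2 fold change 0.97, 95% confidence interval -0.26 to 2.20) did not pass the threshold (edgeR adjusted p = 0.204), and the interval leaves room for no change and for a rise of more than the one fitted for *Gcg*. *Nts* (ENSMUSG00000019890) lies on chromosome 10 from 102481756 to 102490486, on the minus strand.

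*Insl5*, the peptide of L cells of the colon, had 0 counts in all 5 WT libraries and 0, 7, 5, 67 and 18 counts in KO replicates 1 to 5, which is 0, 0.366, 0.269, 3.19 and 0.943 CPM. KO replicate 4 held 67 of the 97 counts, and KO replicate 1 was at 0 like the WT libraries. Against a floor of 3 counts over the WT group, *Insl5* was at least 29.8-fold higher over the KO group, and at least 11.8-fold higher without KO replicate 4. The mean log2 CPM differed by 2.42 (2-sided exact permutation test, p = 0.0476, not adjusted, where 5 mice against 5 can reach 0.00794 at the lowest), a size that depends on the prior count added before the logarithm and was 3.87 with a prior count of 0.5 in place of 2. *Insl5* (ENSMUSG00000066090) lies on chromosome 4 from 103017872 to 103026842, on the minus strand. *Car1*, the colon gene above, was highest in KO replicate 2 and not in KO replicate 4.

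*Sst* and *Tph1*, the genes of cells found all along the gut, did not behave alike. Somatostatin of D cells inhibits the release of most other gut hormones. It had 47.6, 46.3, 46.3, 40.4 and 47.4 CPM in WT replicates 1 to 5 and 28.3, 33.0, 47.8, 36.9 and 21.4 CPM in KO replicates 1 to 5. In KO mice 4 libraries were below all WT libraries and replicate 3 was above them. The log2 fold change of -0.44 (95% confidence interval -0.84 to -0.05) did not pass the threshold after adjustment (edgeR adjusted p = 0.0792), and without KO replicate 3 it was -0.62 and passed (adjusted p = 0.0172).

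*Tph1*, the rate-limiting enzyme of serotonin synthesis in enterochromaffin cells, had 12.3, 14.5, 17.6, 8.56 and 9.18 CPM in WT replicates 1 to 5 and 4.39, 4.08, 3.39, 1.76 and 1.05 CPM in KO replicates 1 to 5. All KO libraries lay below all WT libraries. *Tph1* (ENSMUSG00000040046, chromosome 7 from 46644641 to 46672537, minus strand) was 4.23-fold lower in KO mice (log2 fold change -2.08, standard error 0.37, edgeR adjusted p = 0.00282). Mast cells also hold *Tph1*. Of the 6 tested genes of the mast cell list, *Cpa3* was lower, *Kit*, which interstitial cells of the gut wall also carry, was higher, and 4 did not pass the threshold. Among all genes tested, 13.9% were lower and 16.0% higher. The list summed to between 41.5 and 90.6 CPM in WT libraries and between 60.6 and 95.3 CPM in KO libraries, and without *Kit* to between 15.9 and 64.8 CPM and between 6.62 and 24.4 CPM. The log2 fold change was -2.28 for *Mcpt1* (edgeR adjusted p = 0.0514), -1.67 for *Mcpt2* (adjusted p = 0.150) and -1.68 for *Cpa3* (adjusted p = 0.0192), but -0.53 for *Hdc* and -0.02 for *Gata2* (adjusted p = 0.249 and 0.962). Of its proteases below the filter, *Mcpt4* had 81 counts in the WT group and 25 in the KO group, *Cma1* had 23 and 24, and *Tpsb2* had 26 and 75. The part of mast cells in the *Tph1* difference was not tested. *Sst* (ENSMUSG00000004366) lies on chromosome 16 from 23889573 to 23890958, on the minus strand.

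**Figure D2:**
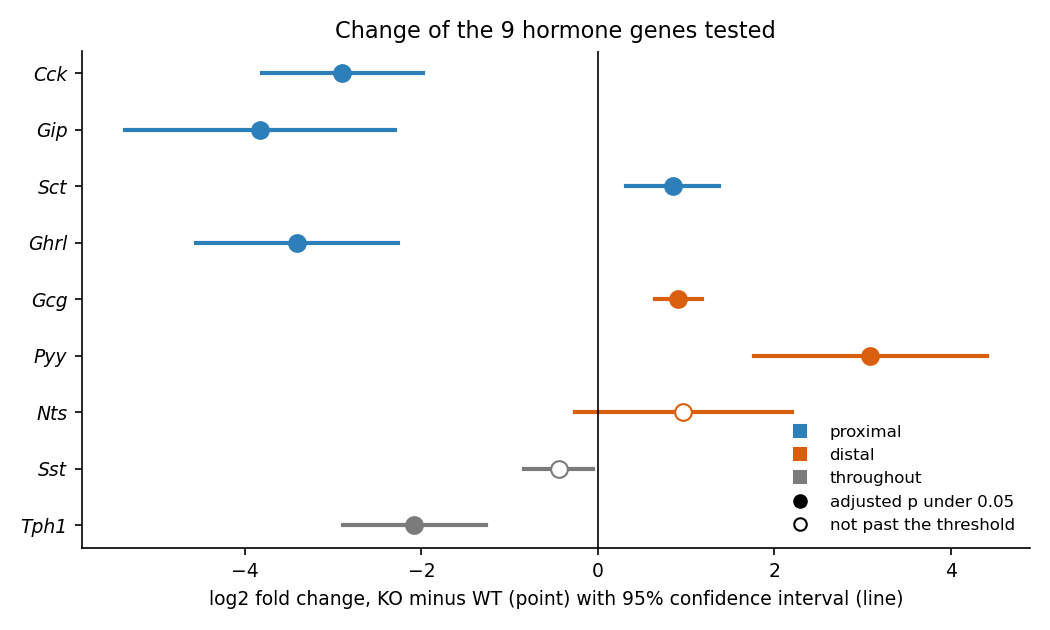
Log2 fold change of KO against WT (horizontal axis) with its 95% confidence interval for the 9 hormone genes that were tested, coloured by where along the gut the hormone is mainly made. Filled points passed an adjusted p of 0.05 in edgeR. *Cck*, *Gip*, *Ghrl* and *Tph1* lay between -3.83 and -2.08, while *Sct*, *Gcg* and *Pyy* lay between 0.85 and 3.09.

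Set against each other, the distal hormones gained on the proximal ones in each KO library. The mean log2 CPM of *Gcg*, *Pyy*, *Nts* and *Insl5* minus that of *Cck*, *Gip*, *Sct* and *Ghrl* was -3.36, -4.37, -4.77, -2.04 and -2.22 in WT replicates 1 to 5 and -0.48, 1.09, 1.20, 2.13 and 2.38 in KO replicates 1 to 5. The groups did not overlap, and KO replicate 1 was the KO library closest to the WT libraries. The mean was -3.35 ± 1.23 in WT mice and 1.26 ± 1.13 in KO mice (SD, n = 5 each), a difference of 4.62, which is given without a test because the sets were chosen with results known. Without *Insl5* and *Ghrl* the difference was 4.23, and with *Sct* moved out of the proximal set it was 5.70.

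**Figure D3:**
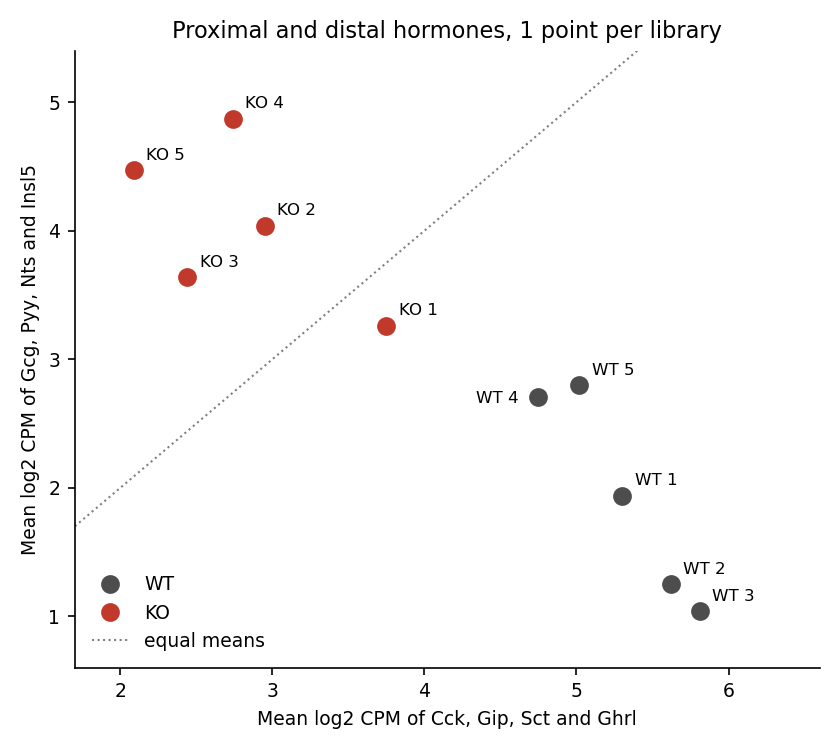
Mean log2 CPM of the proximal hormones (horizontal axis) against that of the distal hormones (vertical axis), with 1 point per library and a dotted line where both are equal. The WT libraries and KO replicate 1 lay below the line and the other 4 KO libraries lay above it.

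The libraries of a group also differed from each other, in several hormones but not in all along the same direction. WT replicates 2 and 3 had the highest *Cck*, *Ghrl* and *Tph1* and the lowest *Pyy* and *Nts* of the WT libraries, and WT replicates 4 and 5 had the lowest *Cck*, *Ghrl* and *Tph1* and the highest *Gcg*, *Pyy* and *Nts*. *Gip* did not follow this order, with its lowest WT level in replicate 1 and its second highest in replicate 5, and *Sct* was lowest in WT replicates 1 and 2. In genes of position, *Onecut2*, a factor of duodenum and jejunum, had 123.9 and 91.5 CPM in WT replicates 2 and 3 and 18.1 and 20.2 CPM in WT replicates 4 and 5. *Osr2*, of the ileum list, had 13.6 and 18.1 CPM in WT replicates 2 and 3 and 69.1 and 64.6 CPM in WT replicates 4 and 5. Among KO libraries, replicate 1 had the highest *Cck*, *Gip*, *Ghrl* and *Tph1* and the lowest *Sct* and *Pyy*, beside the highest *Gata4*, a factor of proximal epithelium, at 59.3 CPM against 0.571 to 13.8 CPM in the other KO libraries. KO replicates 4 and 5 had the highest *Sct*, *Gcg*, *Pyy* and *Insl5*. Genes of the ileum list did not share an order among the KO libraries: *Fabp6*, *Slc51a* and *Slc51b* were highest in replicates 4 and 5, while *Fgf15* and *Cubn* were lowest in replicate 5 and *Slc10a2* had 97.4 CPM in replicate 4 against 243.7 CPM in replicate 3.

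Measured per length of transcript, the makeup of the hormone pool differed between the groups while its size overlapped. The 10 genes summed to 375.2 ± 31.3 CPM per kilobase in WT mice and 323.9 ± 62.7 CPM per kilobase in KO mice (SD, n = 5 each), with overlapping ranges of 338.4 to 413.1 and 269.6 to 419.3. The proximal hormones made up between 60.2% and 76.9% of that sum in WT libraries and between 32.5% and 44.4% in KO libraries, and the distal hormones between 6.37% and 23.7% and between 42.7% and 51.1%. *Gip* alone was a median of 37.9% of the pool in WT libraries and 1.27% in KO libraries, while *Sct* was a median of 16.3% and 29.4%. Shares of a whole are tied to each other, so a fall of *Gip* lifts the share of every other gene.

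In WT mice, *Gip* stood first with 144.6 ± 19.1 CPM per kilobase, above *Sst* with 63.2 ± 4.11 and *Sct* with 60.9 ± 4.94 (SD, n = 5), and the latter pair overlapped. *Cck*, *Nts*, *Gcg*, *Ghrl* and *Pyy* followed in that order of the mean, each overlapping with the next, and *Tph1* with 2.01 ± 0.608 CPM per kilobase was above *Insl5* at 0. In KO mice, *Sct* stood first with 109.5 ± 46.5 CPM per kilobase, without overlap with *Nts* at 57.1 ± 5.85. *Nts*, *Pyy*, *Sst* and *Gcg* followed, each overlapping with the next. *Gip* at 10.2 ± 11.6 CPM per kilobase was sixth and below every *Gcg* value, and *Cck*, *Ghrl*, *Insl5* and *Tph1* came after it with overlapping ranges.

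**Figure D4:**
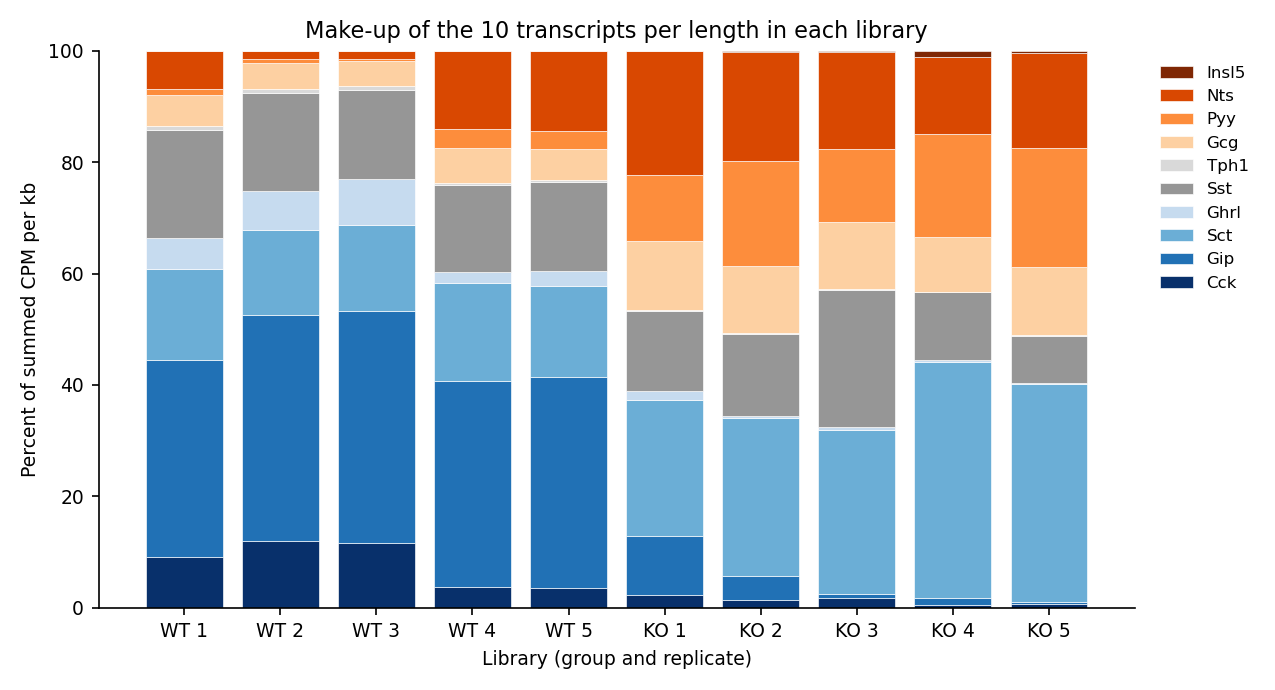
Share of each gene in the summed CPM per kilobase of the 10 genes (vertical axis, percent) in each library, with proximal hormones in blue, those made throughout in grey and distal hormones in orange. *Gip* held between 35.3% and 41.6% of a WT bar and between 0.348% and 10.7% of a KO bar, and *Pyy* between 0.253% and 3.52% and between 11.9% and 21.3%.

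The 250 bases before the start site of 4 of these genes are shown to let the promoters of hormones that moved in opposite ways be read side by side: *Gip* and *Pyy* as the tested hormones with the most negative and the most positive log2 fold change, *Cck* as a further proximal hormone, and *Insl5* as the hormone with counts in KO libraries alone. All 10 genes matched an entry of RefSeq's promoter windows on GRCm38.p6, and the sequences are credited to RefSeq. They run 5′ to 3′ on the strand of the gene, and capitals mark words of the GATA motif, which was searched on both strands as AGATAA and its variants that begin with T, end in G or do both. *Gip* is at chr11:96024295-96024544 on the plus strand, and *Cck* at chr9:121495695-121495944, *Pyy* at chr11:102107833-102108082 and *Insl5* at chr4:103026729-103026978 are on the minus strand. The *Insl5* window ends at a RefSeq start 114 bases downstream of the GENCODE start.
Gip: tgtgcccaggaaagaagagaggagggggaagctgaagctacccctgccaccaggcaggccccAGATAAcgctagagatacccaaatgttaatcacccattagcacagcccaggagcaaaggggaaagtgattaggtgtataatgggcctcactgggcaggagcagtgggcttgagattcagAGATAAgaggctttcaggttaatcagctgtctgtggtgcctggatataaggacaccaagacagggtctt
Cck: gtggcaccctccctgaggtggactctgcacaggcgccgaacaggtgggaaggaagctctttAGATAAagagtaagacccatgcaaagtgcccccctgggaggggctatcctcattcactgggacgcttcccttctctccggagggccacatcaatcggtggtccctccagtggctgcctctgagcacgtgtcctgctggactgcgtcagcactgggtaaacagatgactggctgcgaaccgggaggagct
Pyy: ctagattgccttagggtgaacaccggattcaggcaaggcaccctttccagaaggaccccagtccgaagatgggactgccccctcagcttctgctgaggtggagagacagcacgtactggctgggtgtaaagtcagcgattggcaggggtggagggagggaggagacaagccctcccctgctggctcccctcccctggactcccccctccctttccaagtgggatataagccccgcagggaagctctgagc
Insl5: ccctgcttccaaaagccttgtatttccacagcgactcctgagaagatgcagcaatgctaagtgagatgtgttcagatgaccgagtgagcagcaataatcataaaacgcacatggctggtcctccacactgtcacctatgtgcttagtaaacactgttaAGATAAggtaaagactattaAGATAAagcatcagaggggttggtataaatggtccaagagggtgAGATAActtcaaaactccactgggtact
A GATA word was present in 5 of the 10 windows, with 2 in *Gip*, 1 each in *Cck*, *Nts* and *Tph1*, and 3 in *Insl5*, where 26.5% of the 32851 windows of this length hold one. The words in *Gip* began 188 and 69 bases before the start site, and those in *Insl5* began 92, 72 and 28 bases before it. The E-box CAGATG was present in 4 of the 10 windows (*Cck*, *Sct*, *Gcg* with 2, and *Insl5*), against 14.4% of all windows, and the CDX word TTTATNG in *Sct* only, against 9.8%. That *Sct* match lay on the opposite strand, and on the strand of the gene it reads CTATAAA, 29 bases before the start site. The 3 motifs share no position in these windows. The *Pyy* window held none of these words. A match here is a description of letters and not of a bound site, and GATA words occur in *Gip*, *Cck* and *Tph1*, which fell, as well as in *Nts* and *Insl5*.

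The machinery shared by all enteroendocrine cells did not move in a single direction. Of the 12 general enteroendocrine markers, 4 were lower (*Chga*, *Chgb*, *Neurod1* and *Vwa5b2*), 2 were higher (*Cpe* and *Pcsk1n*) and 6 did not pass the threshold, beside 13.9% lower and 16.0% higher of all genes, with a median log2 fold change of -0.14 against 0.03 over all genes tested. *Chgb*, a granin of secretory granules, averaged 197.3 ± 27.1 CPM in WT and 49.7 ± 30.4 CPM in KO mice, and *Chga*, the granin used most often to mark these cells, had 84.9 ± 13.4 and 32.6 ± 17.2 CPM (SD, n = 5 each). *Cpe*, which trims prohormones, averaged 63.7 ± 19.1 CPM in WT and 144.5 ± 72.9 CPM in KO mice. The list summed to between 340.2 and 463.9 CPM in WT libraries and between 200.7 and 460.5 CPM in KO libraries. The overlap came from KO replicate 4 alone, which held 272.7 CPM of *Cpe*, and the other 4 KO libraries summed to at most 328.2 CPM, below every WT library. Enteric neurons carry several of the same genes, and 11 of the 12 genes of the enteric neuron list were higher in KO mice, with a summed level between 41.5 and 75.4 CPM in WT libraries and between 82.2 and 255.3 CPM in KO libraries. The part of neurons in these values was not tested.

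Of 18 tested transcription factors of the lineage, 7 were lower, against 13.9% of all genes tested, 2 were higher (*Foxa1* and *Etv1*), against 16.0%, and 9 did not pass, with a median log2 fold change of -0.52 against 0.03. *Neurog3*, the factor that starts the lineage, averaged 2.06 ± 0.164 CPM in WT and 0.636 ± 0.0665 CPM in KO mice (SD, n = 5 each), without overlap (log2 fold change -1.68). *Lmx1a*, a factor of enterochromaffin cells, had the most negative log2 fold change of the list at -2.02, and *Foxa1*, which acts in gut epithelium and in L cells, the most positive at 1.50. *Sox4*, a factor of progenitors among others, was at 0.04 (edgeR adjusted p = 0.939). The number of factors called higher was 1 in place of 2 in 9 of the 17 alternatives, among them the fits without any one of the WT libraries, without KO replicate 2 and without KO replicate 4.

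Of the 10 tested genes of prohormone processing and amine synthesis, 3 were higher (*Pcsk1n*, *Cpe* and *Pam*) and 2 were lower (*Ddc* and *Slc18a1*), beside 16.0% and 13.9% of all genes tested. *Ddc*, which makes serotonin from the product of *Tph1* and is also present in enterocytes, averaged 247.6 ± 82.7 CPM in WT and 65.0 ± 37.1 CPM in KO mice, and *Slc18a1*, which loads serotonin into vesicles, had a log2 fold change of -0.72. *Slc18a2*, the other vesicular amine transporter, was not called (log2 fold change 0.21, edgeR adjusted p = 0.596), nor was *Dpp4*, a peptidase that cleaves incretins (-0.53, adjusted p = 0.0781). *Slc6a4*, the transporter by which enterocytes take serotonin up again, was lower as well, with 186.0 ± 28.6 CPM in WT and 88.7 ± 41.1 CPM in KO mice, and so was *Maoa*, which breaks serotonin down (log2 fold change -0.84). *Mboat4*, the enzyme that acylates ghrelin, was below the filter, with 52 counts in the WT group and 26 in the KO group (2-sided exact permutation test, p = 0.0556, not adjusted).

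Among sensors of nutrients and bile acids, 3 of the 9 tested were higher (*Ffar2*, *Ffar4* and *Cnr1*) and 2 were lower (*Trpa1* and *Lpar5*), which is 33.3% and 22.2% against 16.0% and 13.9% of all genes tested. Without KO replicate 1, and in DESeq2, 5 were higher, and 2 were without KO replicate 3 or KO replicate 4. *Ffar4*, a receptor for long-chain fatty acids, averaged 2.02 ± 0.503 CPM in WT and 6.35 ± 1.60 CPM in KO mice, and *Ffar2*, a receptor for short-chain fatty acids, had 6.37 ± 1.08 and 13.8 ± 2.87 CPM (SD, n = 5 each). *Trpa1*, an irritant channel of enterochromaffin cells, had 6.13 ± 2.0 and 1.19 ± 0.729 CPM. *Gpbar1*, the bile acid receptor of L cells, was below the filter, with 18 counts in the WT group and 113 in the KO group and no overlap (2-sided exact permutation test, p = 0.00794, not adjusted, the lowest value possible).

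Of the 15 tested receptors of these hormones and genes of serotonin uptake, 4 were higher (*Cckar*, *Npy1r*, *Sort1* and *Htr3a*) and 3 were lower (*Glp1r*, *Slc6a4* and *Maoa*), which is 26.7% and 20.0% against 16.0% and 13.9% of all genes tested. Without WT replicate 1, WT replicate 2 or KO replicate 3, 2 of them were higher. *Glp1r*, the receptor of the *Gcg* product glucagon-like peptide 1, averaged 1.54 ± 0.795 CPM in WT and 0.378 ± 0.239 CPM in KO mice. *Htr3a*, a serotonin receptor channel, had 1.98 ± 0.198 and 5.24 ± 2.20 CPM (SD, n = 5 each). Of 8 tested genes of other endocrine peptides, 4 were higher (*Cartpt*, *Penk*, *Nmu* and *Gal*) and 2 were lower (*Ucn3* and *Iapp*), where 16.0% and 13.9% of all genes were, with a median log2 fold change of 1.21, and *Ucn3*, *Iapp* or both lost their call in most alternatives. *Tac1*, the precursor of substance P, was among the 2 genes that did not pass (log2 fold change 0.58, edgeR adjusted p = 0.0885). Several of these peptides are also made by enteric neurons. *Ppy*, pancreatic polypeptide, had 0 counts in all WT libraries and 3, 6, 8, 26 and 29 counts in KO replicates 1 to 5, at least 22.2-fold higher against a floor of 3 counts over the WT group.

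**Figure D5:**
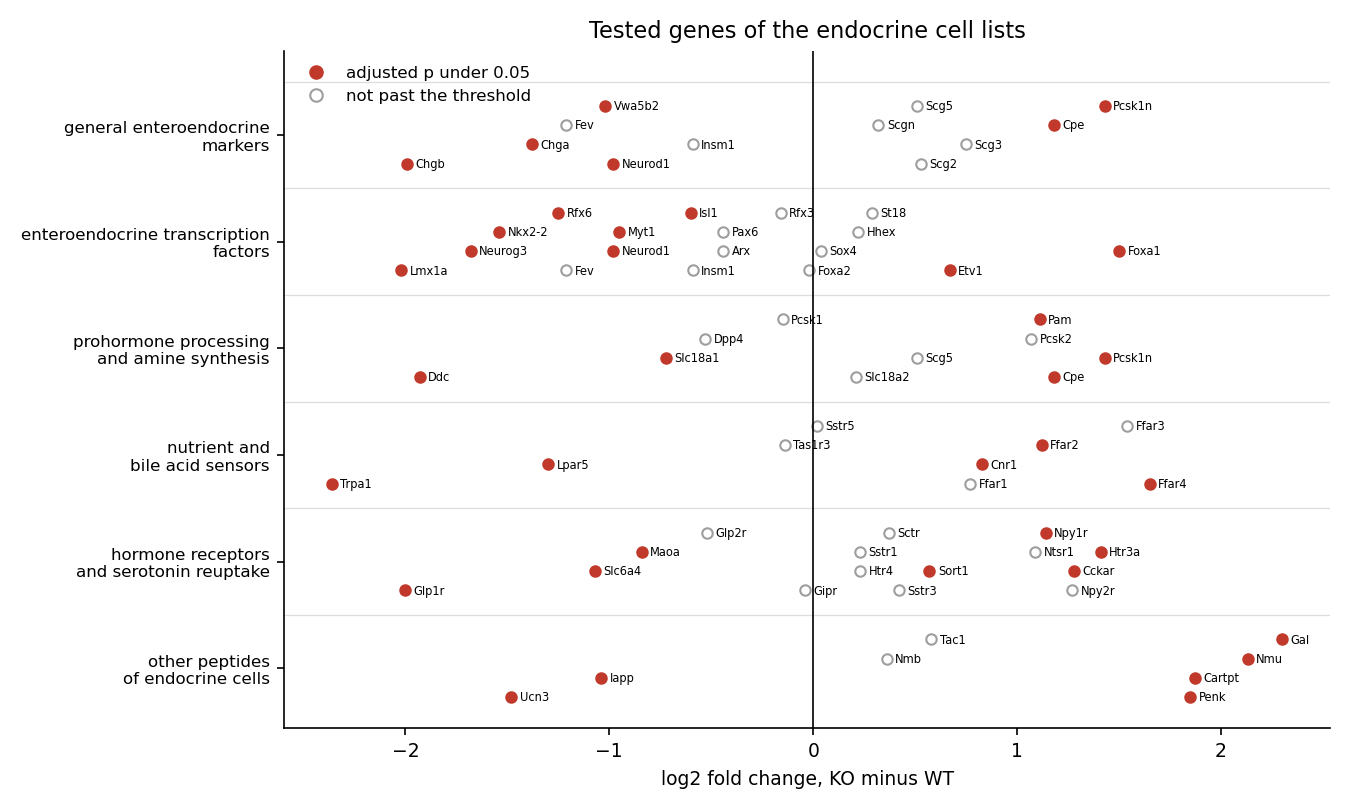
Log2 fold change of KO against WT (horizontal axis) of each tested gene of 6 lists of endocrine cells, with genes on separate heights only to keep their names apart. Red points passed an adjusted p of 0.05 in edgeR. *Trpa1* lay furthest to the left at -2.36 and *Gal* furthest to the right at 2.30.

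*Gcg*, *Sst* and *Ppy* are also made in the pancreas. The islet gene *Slc30a8* was at 0 in all 10 libraries, *Ins1* had at most 5 counts and *Ins2* at most 17 counts in a library, and the only islet gene that passed the filter, *Iapp*, was lower in KO mice. *Ppy* is itself on the islet list and had counts in the KO libraries alone. Of the 10 acinar genes, none of the 2 tested was called, *Ctrb1* and *Cpa1* were highest in KO replicate 2 at 10.1 and 3.45 CPM, where *Ins2* was highest too, and *Clps* reached 291.0 CPM in KO replicate 3. The part of pancreatic RNA in these hormones was not tested. The tissue makeup of the libraries also moved with the group, and its part in the hormone values was tested only by the fits given here. Of 10 smooth muscle genes, 9 were higher in KO mice, and their mean log2 CPM was between 6.68 and 7.44 in WT libraries and between 8.05 and 9.46 in KO libraries. Of 11 general epithelial genes, 8 were higher, with a mean log2 CPM between 9.20 and 9.47 and between 9.73 and 10.10. Goblet cell genes were higher in 5 of 7, and absorptive enterocyte genes were lower in 8 of 12. Beside these counts, 16.0% of all genes tested were higher and 13.9% lower. With the smooth muscle score as a covariate, edgeR called 0 of the hormones, and 5 had an unadjusted p under 0.05, and with the epithelium score it called 0, with *Gcg* alone at an unadjusted p under 0.05. As neither score overlapped between the groups, score and genotype cannot be told apart in these fits. With the mean log2 CPM of the general enteroendocrine markers as the covariate, whose ranges did overlap, with KO replicate 4 standing apart in *Cpe* and *Pcsk1n*, 3 hormones were called higher and 4 lower.

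The genes whose profile over the 10 libraries was closest to that of the hormones with the largest changes were found by the root mean square difference of log2 CPM, each profile centred on its mean. For *Gip* they were the transporters *Slc5a4b*, *Slc7a8* and *Slc23a1*, with differences of 0.43, 0.47 and 0.50. *Slc7a8* averaged 519.3 ± 58.9 CPM in WT and 60.8 ± 79.9 CPM in KO mice (SD, n = 5 each). For *Pyy* they were the magnesium channel *Trpm6*, the phosphate transporter *Slc34a2* and the homeobox gene *Irx4*, with differences of 0.46, 0.60 and 0.61. *Trpm6* averaged 3.58 ± 2.66 CPM in WT and 37.7 ± 14.5 CPM in KO mice. These genes were chosen from all genes tested for their likeness, which is a description.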

How the data were processed

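Libraries were made from RNA of frozen proximal intestinal segments of single mice with a SMARTer mRNA-Seq kit. The authors deposited raw counts per Ensembl gene ID without normalization. The submitters' processing notes list FastQC 0.11.9, Trimmomatic, HISAT2 2.0.4, SAMtools 1.3.1, DESeq2 1.14.1 and the build GRCm38 (mm10). No source used here gives the read counter, its annotation or its strand setting.

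Symbols, positions and merged exon lengths came from GENCODE M21, which named 34490 of the 35275 IDs. The 785 others held between 0.0729% and 0.0827% of a library's counts and stayed in the test. R 4.3.3 was used with edgeR 4.0.16 (filterByExpr with a minimum count of 10 and a minimum total of 15, TMM, quasi-likelihood test, Benjamini-Hochberg adjustment, threshold 0.05), limma 3.58.1 and DESeq2 1.42.0, and the code was tested on simulated data. Log2 CPM had a prior count of 2. A count of 0 allows up to 3 counts at 95% confidence, which covers counting error only. Genes below the filter were compared by an exact permutation test over the 252 splits into 5 and 5. CPM per kilobase divides by merged exon length.

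The members, the gene lists and the tests were chosen with earlier results of these data known. The rule for naming genes within a list allowed at most the 3 most abundant genes and the called genes with the highest and lowest log2 fold change, and for the lists of other cell types and gut positions not all of these are printed. Other genes named in lists (*Neurod1*, *Neurog3*, *Vwa5b2*, *Pam*, *Slc18a1*, *Mboat4*, *Gpbar1*, *Cckar*, *Npy1r*, *Cartpt*, *Nmu*, *Gata4*, *Fgf15*, *Slc10a2*, *Slc51b* and *Slc18a2* among them) were chosen after their values were seen. Calls within the colon list are not reported here.

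Alternatives were RLE factors, scaling by library size alone, the DESeq2 test, dropping the filter or replacing it by a mean count of 10, robust dispersion, the replicate number as a block, leaving out each mouse, 3 marker scores as covariates, a prior count of 0.5, and other members of the proximal and distal sets.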

Additional observations from a re-analysis of the deposited data

Results flagged for a closer look

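Single libraries that stood apart from the other 4 of their group by Dixon's gap at the 95% level were found in 8 of 72 groups examined (the WT and the KO values of the hormones, *Slc39a14*, the distal minus proximal difference and the genes that the naming rule took from the endocrine lists), where chance gives about 1 in 20. Among the hormones, *Ghrl* in KO replicate 1 reached 4.56 CPM, and the other KO libraries lay between 1.05 and 1.72 CPM. *Nts* in KO replicate 3 had 58.4 CPM against 72.2 to 75.5 CPM. *Sst* in WT replicate 4 lay at 40.4 CPM, below the 46.3 to 47.6 CPM of the other WT libraries. *Slc39a14* in KO replicate 1 had 160.0 CPM against 78.3 to 93.6 CPM. Among the list genes so examined, KO replicate 4 stood apart in *Cpe* with 272.7 CPM against 92.7 to 128.8 CPM, *Pcsk1n* with 34.3 CPM against 7.20 to 14.3 CPM, and *Gal* with 31.1 CPM against 4.08 to 9.01 CPM, and other genes of the lists are not covered by this count. *Glp1r* in KO replicate 5 had 0.786 CPM against 0.157 to 0.338 CPM.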

How the results depend on the processing

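Of 180 log2 fold changes of hormones recomputed under alternatives, 161 kept their direction and their side of the threshold, 1 gained a call (*Sst* without KO replicate 3), and 16 lost theirs, 1 of them with a change of sign (*Sct*), and *Nts* and *Sst*, which had no call, also changed sign in 1 setting each. The smooth muscle score as covariate left 10 genes higher and 8 lower among all genes and 0 hormones in either direction, and *Sct* turned to -0.03. The epithelium score left 5 higher and 2 lower and 0 hormones in either direction, and *Nts* turned to -1.11 and *Sst* to 0.18. The other 6 called hormones kept their direction in both fits with larger standard errors, but several shrank by more than 1.5 times. With epithelium *Cck* was at -1.14 (SE 0.79), *Gip* -2.36 (1.58), *Ghrl* -1.61 (1.09), *Tph1* -0.42 (0.70), *Pyy* 1.54 (1.15), *Gcg* 0.57 (0.25) and *Sct* 0.79 (0.53), and with smooth muscle *Cck* was at -1.69 (0.71), *Gip* -2.63 (1.08), *Ghrl* -2.29 (0.93), *Tph1* -1.18 (0.64), *Pyy* 1.96 (0.96) and *Gcg* 0.66 (0.20). At an unadjusted p under 0.05 these edgeR fits held 2206 genes with the smooth muscle score and 2533 genes with the epithelium score. Over the 10 fits that each leave out 1 mouse, the number of genes higher in KO mice was between 1634 and 2944 and of genes lower between 1573 and 2563, where all mice gave 2491 and 2169, and the lowest number of higher genes came without WT replicate 2. In these fits 2 to 3 hormones were higher and 4 to 5 lower, and of the distinct genes in the endocrine lists 12 to 21 were higher and 14 to 20 lower, where all mice gave 16 and 19. The log2 fold changes ran from -4.72 to -3.55 for *Gip*, from -3.99 to -3.13 for *Ghrl*, from -3.10 to -2.68 for *Cck*, from -2.27 to -1.87 for *Tph1*, from 0.61 to 0.98 for *Sct*, from 0.86 to 0.97 for *Gcg*, from 2.81 to 3.50 for *Pyy*, from 0.71 to 1.41 for *Nts* and from -0.62 to -0.32 for *Sst*. The *Insl5* difference of mean log2 CPM ran from 1.79 to 3.03 when 1 mouse was left out and was 3.87 with a prior count of 0.5, and the distal minus proximal difference ran from 4.26 to 5.06 when 1 mouse was left out. DESeq2, which tests genes without that filter, called *Insl5* higher (log2 fold change 6.49, adjusted p = 0.00575), as did edgeR with no filter (7.14, adjusted p = 0.0259). With scaling to library size only, 69.4% of the calls were higher, against 53.5% with TMM, and the median log2 fold change of all genes was 0.15 against 0.03. The list of other endocrine peptides kept 0 or 1 of its 2 lower calls in most alternatives.

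Same-numbered WT and KO libraries did not deviate together over all genes tested (correlations of 0.02, 0.00, -0.09, 0.18 and -0.17 for numbers 1 to 5). The labels do not say whether the numbers pair the mice, and these correlations cannot settle it. *Cck* and *Tph1* were lowest and *Gcg* and *Pyy* highest in replicates 4 and 5 of both groups. *Gip*, *Sct*, *Ghrl*, *Nts* and *Sst* had no such match. With the replicate number as a block, 3 hormones were higher and 4 lower, *Gip* was at -4.52 and *Nts* at 1.52 (edgeR adjusted p = 0.0834), and 1950 genes were higher and 1898 lower. The cause of these shifts was not tested. Low counts limit *Insl5*, *Ppy*, *Mboat4* and *Gpbar1*, whose levels lie near the floor of 3 counts in at least some libraries.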
